A study of Homo sapiens with 4 samples.

Results

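The genes of deoxynucleotide supply were followed in ACHN cells, a human line derived from renal cell carcinoma, that had been transfected with siPRR11 or with the control siRNA siNC. The 9 genes, out of 36359 in the table, were taken by name. They are the ribonucleotide reductase subunits RRM1, RRM2 and RRM2B, the enzymes TYMS, DUT and DCTD that lead to thymidylate, the salvage kinases TK1 and DCK, and the dNTP hydrolase SAMHD1. They were chosen by their role with the siPRR11 to siNC fold changes and calls of these counts already known, so these differences are given as a description and are not evidence about the group. Each condition held 2 libraries. All 4 came from the same parental line in MEM with serum and from the same transfection reagent, so siPRR11 is the labelled difference between the groups. The sources used here do not state which siPRR11 duplex was used, how long after transfection RNA was taken, or whether the libraries of a group came from separate cultures. The p-values therefore measure the spread between these libraries, which may be technical.

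A DNA polymerase needs all 4 deoxynucleotides in balance. Ribonucleotide reductase makes their precursors by reducing ribonucleotides, and it works as a complex of a large catalytic subunit, encoded by RRM1, with a small subunit that carries the radical. RRM2 encodes the small subunit of dividing cells, and RRM2B, a p53 target, encodes an alternative small subunit used outside S phase and after DNA damage. Thymidylate has a route of its own. DUT and DCTD provide dUMP, TYMS methylates it, and TK1 recovers thymidine from outside the route. DCK phosphorylates deoxycytidine and other deoxynucleosides, and SAMHD1 degrades dNTPs.

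PRR11, the silenced gene, lay at 41.3 and 40.4 TMM-normalized CPM (counts per total count after scaling of the libraries) in siNC and at 15.3 and 14.0 CPM in siPRR11. The libraries held between 59003839 and 92612749 counted reads. The 9 genes had between 1582 and 19092 counts each in a library, and all 9 passed the filter on low counts. Markers of renal tubule epithelium, the origin of the line, were abundant, with PAX8 at 16309 counts or more in every library. LRP2, a marker of the proximal tubule, had at most 6 counts. Of the markers of other cell types, PTPRC, CD3E, PECAM1, CDH5, KDR, DCN and LUM had at most 8 counts in any library. The others of these lists were not all low. ITGAM had 243 counts or more, and ITGAM, COL1A1 and RGS5 were called higher in siPRR11. Summed over the 6 fibroblast and pericyte markers, the level was 5.5 to 6.27 RPKM in siNC and 10.2 to 12.9 RPKM in siPRR11. Most of this sum was COL1A1 and RGS5. COL1A1 was at 4.96 and 4.30 RPKM in siNC and at 9.97 and 7.85 RPKM in siPRR11. RGS5 was at 1.22 and 1.11 RPKM in siNC and at 2.76 and 2.29 RPKM in siPRR11. COL3A1 and PDGFRA were at most 0.0691 and 0.0599 RPKM in any library. The part of such cells in the results was not tested.

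The promoters of the genes whose mRNA differed most are shown, because they allow a look at which elements these genes share. The 250 bases before the start site are given 5′ to 3′ on the strand of the gene, from the RefSeq promoters of GRCh38.p14. Capitals mark exact matches, on either strand, to an E2F site (TTNNCGC, where each N stands for C or G) or to the CCAAT box of NF-Y. RRM1 lies on chr11:4094435-4094684 (plus strand), RRM2 on chr2:10122489-10122738 (plus), TYMS on chr18:657403-657652 (plus), TK1 on chr17:78187053-78187302 (minus) and SAMHD1 on chr20:36951709-36951958 (minus).
RRM1: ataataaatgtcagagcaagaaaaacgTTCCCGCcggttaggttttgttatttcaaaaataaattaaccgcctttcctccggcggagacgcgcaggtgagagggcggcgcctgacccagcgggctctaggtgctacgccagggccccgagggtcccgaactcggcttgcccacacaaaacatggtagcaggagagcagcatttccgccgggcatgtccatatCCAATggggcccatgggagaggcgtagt
RRM2: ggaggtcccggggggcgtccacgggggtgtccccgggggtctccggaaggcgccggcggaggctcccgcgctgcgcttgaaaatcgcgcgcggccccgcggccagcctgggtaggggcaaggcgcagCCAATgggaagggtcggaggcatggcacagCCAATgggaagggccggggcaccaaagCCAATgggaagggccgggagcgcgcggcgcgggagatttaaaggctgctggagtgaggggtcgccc
TYMS: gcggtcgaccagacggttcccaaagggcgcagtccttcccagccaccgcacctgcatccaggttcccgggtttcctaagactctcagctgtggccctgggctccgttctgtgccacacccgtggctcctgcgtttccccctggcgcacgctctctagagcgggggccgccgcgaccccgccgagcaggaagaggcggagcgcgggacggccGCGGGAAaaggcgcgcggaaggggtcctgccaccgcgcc
TK1: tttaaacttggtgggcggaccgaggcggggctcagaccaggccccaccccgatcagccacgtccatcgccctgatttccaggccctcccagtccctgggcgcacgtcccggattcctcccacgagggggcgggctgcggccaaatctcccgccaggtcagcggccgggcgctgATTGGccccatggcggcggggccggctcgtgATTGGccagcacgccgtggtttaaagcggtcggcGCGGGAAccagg
SAMHD1: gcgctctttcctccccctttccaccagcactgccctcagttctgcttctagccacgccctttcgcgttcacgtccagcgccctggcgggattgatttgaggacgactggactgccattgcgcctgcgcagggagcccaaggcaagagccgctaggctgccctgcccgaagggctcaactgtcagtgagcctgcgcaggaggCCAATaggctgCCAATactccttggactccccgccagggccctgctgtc

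The RRM2 promoter held 3 CCAAT boxes, whose first bases lay at -123, -93 and -66 from the start site, and no match to the E2F letters. TYMS held a single E2F match at -39 and no CCAAT box. TK1 held both kinds, with CCAAT boxes at -77 and -46 and an E2F match at -12. RRM1 also held both, an E2F match at -223 and a CCAAT box at -28, and its start site lies 114 bases from that of the reference transcript (MANE Select), while those of the others coincide with it. SAMHD1 held a pair of CCAAT boxes at -49 and -38. Of the 8 genes with a window, 4 held an E2F match and 4 a CCAAT box, against 10.9% and 32.0% of 35116 promoters of this length. The GC box GGGCGG was found in 5 of the 8 against 42.6% of all promoters, and the CHR element (TTTGAA or TTCGAA) in RRM1 alone against 14.3%. The upstream windows of these genes contained between 56.4% and 80% G or C, against a median of 58% over all promoters. A match is a description of letters, not of binding. RRM1 and TK1, whose mRNAs moved in opposite directions, both held E2F and CCAAT matches. DCK, which was not called, held 2 E2F matches.

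**Figure D1:**
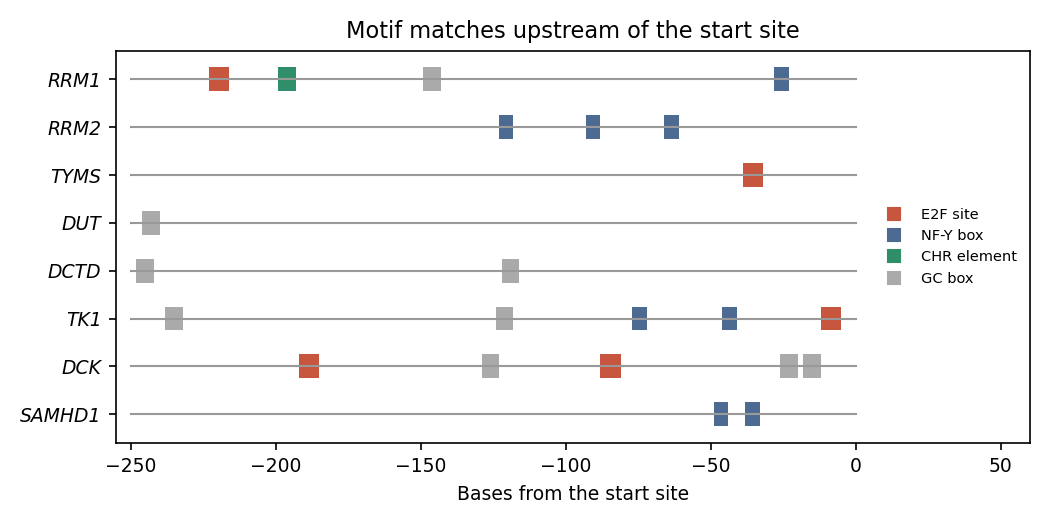
Positions of motif matches in the 250 bases before the start site of the 8 genes with a RefSeq promoter window, in bases from the start site (x axis), one line per gene. Colored boxes mark E2F sites, NF-Y (CCAAT) boxes, CHR elements and GC boxes. The 3 NF-Y boxes of RRM2 lie between -123 and -66.

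The levels of the genes were compared per length, in RPKM as deposited by the authors. In siNC cells TYMS was the most abundant, at 47.7 and 44.7 RPKM, above 95.3% of the 21630 genes tested. TK1 followed at 29.8 and 25.04 RPKM, RRM1 at 24.8 and 23.8 RPKM and RRM2 at 14.3 RPKM in both libraries. DUT (10.8 RPKM in both) and DCK (10.2 and 11.3 RPKM) could not be ordered, since their libraries overlapped. The same was true of DCTD (7.01 and 8.18 RPKM) and SAMHD1 (7.61 and 7.13 RPKM). RRM2B was the least abundant, at 4.19 and 4.83 RPKM, still above 65% of the genes tested. Control ACHN cells thus carried more RRM1 than RRM2 mRNA per length, by a ratio of 1.73 and 1.67 in the 2 libraries.

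**Figure D2:**
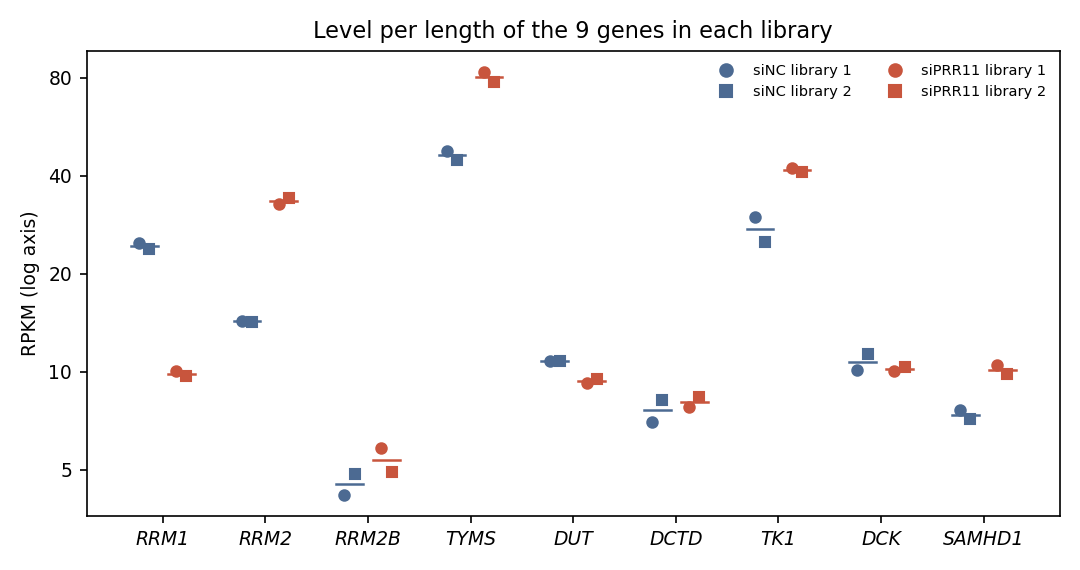
RPKM of the 9 genes on a log axis, with a circle and a square for the first and the second library of siNC (blue) and of siPRR11 (red) and a line at the group mean. RRM1 falls from 24.8 and 23.8 to 10.0 and 9.66 RPKM while RRM2 climbs from 14.3 to 32.7 and 34.1 RPKM, so that their order turns.

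The ribonucleotide reductase subunits moved apart when PRR11 was silenced. RRM1 (GRCh38, chromosome 11, 4094707 to 4138876) was at 105 and 101 CPM in siNC and at 41.1 and 39.8 CPM in siPRR11. Both silenced libraries lay below both controls, and their mean was 39.1% of the control mean. The log2 fold change was -1.35 (standard error, SE, 0.0764), or 2.56-fold lower. RRM2 (chromosome 2, 10122328 to 10131419) was at 72.0 and 71.9 CPM in siNC and at 159 and 166.5 CPM in siPRR11. Its groups were far apart relative to the gap between libraries, and its level was 2.26-fold higher, a log2 fold change of 1.18 (SE 0.0733). Among the 14193 genes whose average log2 CPM was 1 or more, RRM1 ranked at place 23 of the falls and RRM2 at place 35 of the rises. RRM2B (chromosome 8, 102204502 to 102239118) did not follow either of them. It was at 23.6 and 27.3 CPM in siNC and at 31.8 and 26.8 CPM in siPRR11, so the groups overlapped. Its log2 fold change of 0.21 (SE 0.108) was not past the threshold, and it ranged from 0.08 without siPRR11 library 1, through 0.10 without siNC library 1 and 0.31 without siNC library 2 (past the threshold), to 0.32 without siPRR11 library 2.

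The ratios between the subunit mRNAs followed from these shifts. RRM2 was at 0.576 and 0.598 of the RRM1 level per length in siNC, and at 3.27 and 3.53 times that level in siPRR11. RRM1 against the sum of RRM2 and RRM2B was 1.34 and 1.25 in siNC and 0.26 and 0.248 in siPRR11. Per length, the large subunit thus went from the more abundant mRNA to the less abundant one. The lengths count all exonic bases annotated for a gene, 4177 for RRM1 and 4955 for RRM2. Where such a ratio lies against 1 depends on these lengths. RRM2B made up 22.7% and 25.3% of the small subunit mRNA in siNC and 15.1% and 12.6% in siPRR11. The sum of the 3 subunits moved less, at 43.3 and 42.9 RPKM in siNC and 48.6 and 48.7 RPKM in siPRR11. These are ratios of mRNA, and the amounts of protein were not analysed here.

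**Figure D3:**
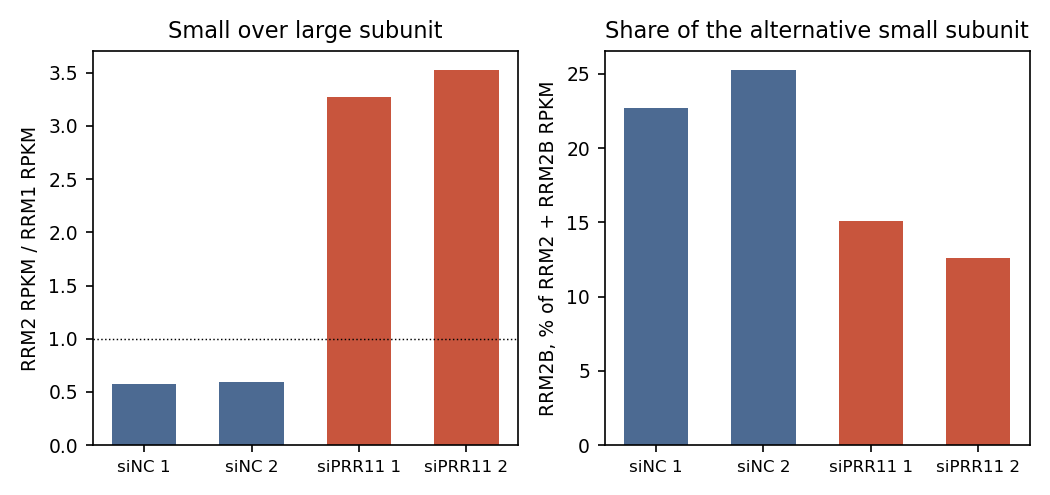
Left, RRM2 RPKM divided by RRM1 RPKM in each library, with a dotted line at a ratio of 1. Right, RRM2B as a percentage of the summed RPKM of RRM2 and RRM2B. The first ratio is 0.576 and 0.598 in siNC and 3.27 and 3.53 in siPRR11.

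Among the genes of thymidylate synthesis, TYMS was higher in siPRR11, and the enzymes that feed it with dUMP were not past the threshold. TYMS (chromosome 18, 657604 to 673578) was at 119.9 and 112 CPM in siNC and at 203 and 189 CPM in siPRR11. The groups did not overlap, and the log2 fold change was 0.75 (SE 0.0759). DUT (chromosome 15, 48331011 to 48343373) was at 40.2 and 40.4 CPM in siNC and at 33.4 and 34.3 CPM in siPRR11. Both silenced libraries were below both controls, with a log2 fold change of -0.25 (SE 0.081). DCTD (chromosome 4, 182890060 to 182917936) was at 24.7 and 28.9 CPM in siNC and at 26.4 and 28.5 CPM in siPRR11. Its groups overlapped, and its log2 fold change of 0.04 (SE 0.0995) was smaller than its error.

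The salvage kinases split in the same manner. TK1 (chromosome 17, 78174075 to 78187233) was at 56.4 and 47.4 CPM in siNC and at 77.4 and 75.5 CPM in siPRR11, a log2 fold change of 0.56 (SE 0.0908). The siNC libraries of TK1 stood further apart than those of the other genes called, and the change was 0.44 without siNC library 2 and 0.69 without siNC library 1. DCK (chromosome 4, 70992538 to 71030914) was at 33.3 and 37.1 CPM in siNC and at 31.9 and 33.0 CPM in siPRR11. Its groups just failed to overlap, and its log2 fold change of -0.12 (SE 0.0885) was not past the threshold. It was -0.04 without siNC library 2 and -0.20 without siNC library 1, not called in either. TK1 per length was 2.94 and 2.22 times the DCK level in siNC and 4.2 and 3.97 times in siPRR11.

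SAMHD1, the enzyme of the group that removes dNTPs, was higher in siPRR11 together with RRM2, TYMS and TK1. It lies on chromosome 20 from 36890229 to 36951843 and was at 38.9 and 36.5 CPM in siNC and at 51.7 and 48.9 CPM in siPRR11. The groups did not overlap, with a log2 fold change of 0.41 (SE 0.0824). Without siPRR11 library 1 it was 0.375 and no longer past the threshold.

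Of the 9 genes, 4 were called higher (RRM2, TYMS, TK1 and SAMHD1), 1 was called lower (RRM1) and 4 were not called, where called means an adjusted p-value below 0.05 in the edgeR fit. The background was 16.7% of the 21630 genes tested, 7.61% called higher and 9.14% called lower. Over the genes with average log2 CPM of 1 or more, 23.1% were called in either direction. At an unadjusted p-value below 0.05 the count was 6 of the 9 genes against 30.3% of all genes. With limma on log2(RPKM + 1) the split over all genes was 1091 higher to 684 lower in place of 1645 to 1977. The groups did not overlap for 7 of the 9 genes, and for 58.4% of all genes. The median log2 fold change was 0.205 for the 9 genes and 0.00 for all genes tested. As the genes were named with this comparison in view, nothing is read from these counts. The count over all genes moved with single libraries, to 2172 calls without siPRR11 library 1 and 2393 without siPRR11 library 2 in place of 3622.

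**Figure D4:**
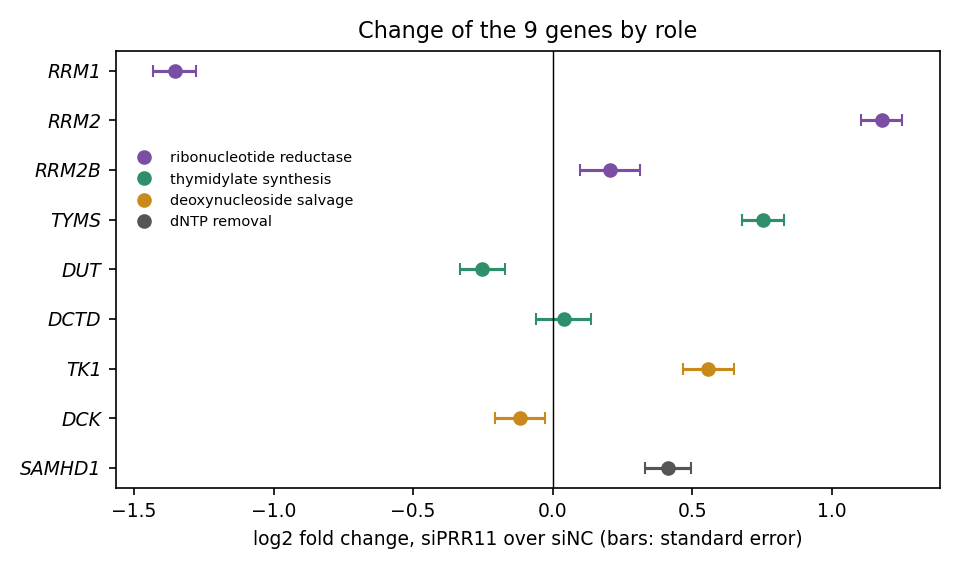
Log2 fold change of siPRR11 over siNC for the 9 genes (x axis), with bars for the standard error and colors for their roles. RRM1 at -1.35 and RRM2 at 1.18 lie at opposite ends, and RRM2B, DUT, DCTD and DCK lie between -0.25 and 0.21.

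Reads of some of these genes could belong to overlapping genes, since the libraries were stranded but the sources used here do not state whether counting used the strand. RRM2, RRM2B, DCTD and TK1 shared no exonic base with another gene of the table. For RRM1, 1.5% of the exonic bases were covered by the antisense gene RRM1-AS1, which fell from 2276 and 1427 counts in siNC to 939 and 822 counts in siPRR11. Its log2 fold change was -1.42 (SE 0.102, with 8.3e-06 as its adjusted p in the edgeR fit). For TYMS, 26.2% of the exonic bases were covered by genes of the other strand, ENOSF1 and TYMSOS, so its value is uncertain. ENOSF1 was higher in siPRR11 by 0.58 (SE 0.0798, adjusted p = 0.000592) and TYMSOS by 0.71 (SE 0.0996, adjusted p = 0.000681), both on the log2 scale of edgeR's test. Whether these genes moved or took reads from TYMS was not tested. Other genes covered 14.5% of the exonic bases of DUT, 6.2% of DCK (MOB1B, on the same strand) and 4.1% of SAMHD1 (TLDC2). Of 50-base stretches in the GENCODE transcripts, 37.8% of those of TYMS, 9.93% of DUT, 9.48% of SAMHD1, 4.7% of DCK, 2.15% of RRM2 and under 1% of the others recurred in transcripts of another gene. No stretch was shared between RRM2 and RRM2B, although they are paralogs. The 6 pseudogenes of RRM2 and DUT in the table had at most 14 counts in any library.

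The patterns most like those of the reductase subunits were sought among 14192 genes by the root mean square distance of centred log2 CPM over the 4 libraries. With 4 libraries in 2 groups, such a distance mostly reflects the size of the group difference. Nearest to RRM1 were RPL22L1, a paralog of a ribosomal protein (distance 0.0169), FAM107B (0.0212) and EPDR1 (0.027), with log2 fold changes of -1.34, -1.36 and -1.33. Nearest to RRM2 were NOLC1, a nucleolar phosphoprotein (distance 0.0198), C2CD3, a centriole protein (0.0321), and ADAMTS9-AS1, an antisense RNA (0.037), with log2 fold changes of 1.15, 1.17 and 1.25. For RRM2B they were CTB-129P6.7 (0.014), the transcription factor RUNX1 (0.0174) and ZNF83 (0.0232), with log2 fold changes between 0.20 and 0.24.

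The wider pathway was followed in 83 further genes, listed by role with earlier results of these data known, so that their counts are a description. Of these, 80 were tested and 17 were called in the edgeR fit, of which 6 were higher and 11 lower with siPRR11. This is 21.2% of them, against 16.7% over all genes, and 23.1% over the genes with average log2 CPM of 1 or more. Their median log2 fold change was -0.03. The calls depended on single libraries, with 26 without siNC library 1, 6 without siPRR11 library 1 and 7 without siPRR11 library 2. Of the called genes named here, NT5E, TXNRD1 and CTPS2 were called whichever library was left out. With limma on log2(RPKM + 1) or log2(RPKM + 0.1) the calls of CTPS2, DHODH, CCNF, TK2, NME2, NME6, GGH, ADSS1 and ADSS2 were lost, and that of UCKL1 with the former.

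Among the 10 partners of the reductase, 1 gene was called in each direction. TXNRD1, the thioredoxin reductase whose electrons reach ribonucleotide reductase through thioredoxin, was at 1189 and 1487 CPM in siNC and at 736 and 866 CPM in siPRR11. It fell by 0.74 on the log2 scale (SE 0.108, adjusted p = 0.000876 in edgeR's fit). Thioredoxin itself (TXN) had a log2 fold change of 0.06. CCNF, which encodes the cyclin F that targets RRM2 protein for degradation, rose from 16.7 and 16.2 CPM to 23.3 and 20.5 CPM, a log2 fold change of 0.41 (adjusted p = 0.0149 in edgeR's fit). This call was lost without siPRR11 library 1.

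Of the 12 other nucleoside and nucleotide kinases, 3 were called, all lower. TK2, the mitochondrial thymidine kinase, was at 16.3 and 28.1 CPM in siNC and at 12.7 and 14.5 CPM in siPRR11, a log2 fold change of -0.70 (SE 0.192, adjusted p = 0.0271 in edgeR's fit). The siNC libraries of TK2 differed widely, its change was -0.26 and not called without siNC library 2, it was not called with DESeq2 on all 4 libraries, and other genes cover 25% of its exonic bases. NME6 fell by 0.37 and NME2 by 0.26 on the log2 scale. NME2 shares 22.9% of its exonic bases with the readthrough gene NME1-NME2, and both calls were lost without either siPRR11 library, that of NME6 also without siNC library 2. DGUOK, the mitochondrial deoxyguanosine kinase, and DTYMK, which phosphorylates TMP, were not called, at 0.06 and 0.27.

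Of the 12 genes of dNTP removal and pool cleaning, NT5E alone was called. This gene of the surface nucleotidase CD73, which acts on extracellular AMP and not on dNTPs, was at 10.4 and 15.3 CPM in siNC and at 4.38 and 4.16 CPM in siPRR11, and fell by 1.58 on the log2 scale (SE 0.166, adjusted p = 0.000118 in edgeR's fit). The intracellular enzymes of the list, DCTPP1 (-0.16), NUDT1 (0.12) and ITPA (0.07) among them, were not called. PNP, a purine nucleoside phosphorylase, was the only gene called of 5 tested for nucleoside breakdown, with a log2 fold change of 0.41 (adjusted p = 0.00573 in edgeR's fit), a call lost without siPRR11 library 2. An antisense gene that covers 11.9% of the exonic bases of PNP had a log2 fold change of 0.42. All 492 exonic bases of this antisense gene lie within exons of PNP. Whether its counts are reads of PNP was not tested.

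In the folate cycle that serves TYMS, 2 of 11 genes were called, both higher. GGH, a hydrolase of folate polyglutamates, rose by 0.35 (adjusted p = 0.027 in edgeR's fit), a call lost without siNC library 2 and without either siPRR11 library.

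Ribonucleotide synthesis had 3 of 8 pyrimidine genes and 5 of 16 purine genes called. Of the pyrimidine genes, CTPS2, a CTP synthase, fell by 0.62 (adjusted p = 0.00297 in edgeR's fit) and DHODH, the mitochondrial enzyme of de novo synthesis, by 0.44 (adjusted p = 0.00898), while UCKL1 rose by 0.33 (adjusted p = 0.0329). CAD, the first enzyme of the route, was not called, at 0.14. CTPS1, the paralog of CTPS2, was not called either, at 0.24. Its mean in siNC was 11.7 RPKM, against 2.01 RPKM for CTPS2. Of the purine genes, IMPDH1, an isoform of the rate-limiting enzyme of GMP synthesis, fell by 0.42 (adjusted p = 0.00611 in edgeR's fit), and ADSS2, a synthetase of the AMP branch, by 0.29. Its paralog ADSS1 rose by 0.49. IMPDH2, the paralog of IMPDH1, was not called, at -0.03. The mean of IMPDH2 in siNC was 46.1 RPKM, against 10.8 RPKM for IMPDH1. Without siPRR11 library 1 the calls of IMPDH1, ADSS1, ADSS2 and UCKL1 were lost, without siPRR11 library 2 those of DHODH, ADSS2 and UCKL1, and without siNC library 2 that of UCKL1. None of the 6 transporters tested was called by edgeR's test. The number was also 0 at an unadjusted p-value under 0.05 and with DESeq2.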

How the data were processed

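RNA-seq libraries of ACHN cells (siNC and siPRR11, 2 each, grouped by the sample labels) were analysed. The authors trimmed reads (Trimmomatic 0.36, per the submitters' processing notes), used STAR for alignment to GRCh38 and featureCounts for counting (Subread 1.5.1). They deposited raw read counts per gene, without normalization. The authors also deposited RPKM, which equals counts per exonic length and library total to within 3.08e-06% over 15916 genes. The annotation release is not given in the sources used here. All value columns were used.

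Counts were fitted with edgeR 4.0.16 in R 4.3.3 (quasi-likelihood test, TMM, filterByExpr, condition as the only term, Benjamini-Hochberg adjustment, threshold 0.05). Standard errors are the log2 fold change over the square root of F. The members and lists were chosen with earlier results of these data known. Named were PRR11, the 9 members, up to 3 called genes per role with the largest change and an average log2 CPM of at least 1, the 3 nearest patterns of each reductase subunit, overlapping genes and pseudogenes. Other genes named for contrast were chosen after their values were seen. Alternatives were RLE factors, DESeq2 1.42.0, edgeR's exact test, other filters, the replicate number as a term, limma 3.58.1 with a trend on log2(RPKM + 1) or log2(RPKM + 0.1), and each library left out. The fits were tested on simulated data. Of 23360 symbols shared with GENCODE, 99.81% overlapped in position. Protein sequences were not used here. Some genes are not reported here by name.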

Additional observations from a re-analysis of the deposited data

How the results depend on the processing

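The direction of 8 of the 9 genes held under all 12 alternatives, and RRM1, RRM2, TYMS and TK1 were called in each of them. DCTD, not called anywhere, took either sign, from -0.07 to 0.15. The number of the 9 genes called was 5 under every alternative but the replicate block (7, with RRM2B and DUT added), an unadjusted threshold (6) and the fits without a library (4 to 6). Over all genes, calls numbered 6988 with the replicate block, 1775 and 1878 with limma on log2(RPKM + 1) and log2(RPKM + 0.1), 6553 at an unadjusted p-value under 0.05, and 2172 to 4590 without a library, against 3622. Over the 80 further pathway genes the same settings gave 37, 5, 6, 34 and 6 to 26 calls, against 17. The block rests on replicate numbers that nothing ties to a shared culture or day. Deviations from the group means correlated across 14193 genes between libraries of the same number (Pearson r 0.482), which is a hint from the data and not the design. In fits without a library, the lone library of its group is assumed to vary like the others. The order of the levels in siNC kept 7 of 9 places in each siNC library alone. The alignment of RRM2 and RRM2B proteins was not run. The cause of these differences was not tested. With 2 libraries per group, changes as small as those of DUT, DCK and DCTD cannot be told from no change.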

Other observations

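A pair of further lists was read, one of S phase genes and one of p53 target genes. Of 15 S phase genes, 8 were called in the edgeR fit, of which 7 were higher and 1 lower with siPRR11, which is 53.3% of them, and the median log2 fold change was 0.235. PCNA, the polymerase clamp, rose by 0.42 (SE 0.0829), while MCM2, a subunit of the replicative helicase, was at -0.15 and not called. Of 15 p53 target genes, 11 were called, all higher, with a median of 0.62. CDKN1A, which encodes p21, rose by 1.07 and MDM2, a ubiquitin ligase of p53, by 0.64. RRM2B, also known as a p53 target, had a log2 fold change of 0.21 and was not called. The share called was 16.7% over all genes, and 23.1% over the genes with average log2 CPM of 1 or more. The calls of these lists were not followed without single libraries. Whether RRM2B differs from the p53 targets of the list was not tested.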
